A study of Mus musculus with 22 samples.

Results

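The nuclear genes for the subunits of the oxidative phosphorylation complexes were examined in mouse pluripotent stem cells and in osteoblast cultures grown from them. Members were the rows whose gene symbol begins with Ndufa, Ndufb, Ndufc, Ndufs or Ndufv and a digit, with Uqcr, with Cox and a digit from 4 to 8, or with Atp5, and the rows Sdha, Sdhb, Sdhc and Sdhd. The rule found 83 of the 19781 genes in each of the 2 tables of embryonic stem cells and 82 of the 19057 genes in the table of induced pluripotent stem cells, which does not list Cox8c. By complex, 34 members belong to complex I, 4 to complex II, 8 to complex III, 20 to complex IV and 17 to complex V. Ndufa4 and Ndufa4l2 were placed with complex IV, of which Ndufa4 is a subunit despite its name, and Atp5s and Atp5sl, which the rule matches, are not subunits of the ATP synthase. The rule does not match Ndufab1, Cyc1, Cycs, Cyct, Atpif1, Usmg5 and 2010107E04Rik, which are given apart, and the 13 subunits encoded by the mitochondrial genome are not analysed here.

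Oxidative phosphorylation takes place in the inner mitochondrial membrane. Complex I (NADH dehydrogenase) and complex II (succinate dehydrogenase) pass electrons to ubiquinone, complex III passes them to cytochrome c, and complex IV (cytochrome c oxidase) passes them to oxygen. Complexes I, III and IV pump protons, and complex V (ATP synthase) uses the proton gradient to make ATP. Several complex IV subunits exist as a general form and as an isoform of heart and skeletal muscle, of testis, or of lung and cells at low oxygen, so their transcripts also carry information on cell type. Pluripotent stem cells are known for a high rate of glycolysis, and respiration is known to rise in many lineages as the cells differentiate.

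All cells carried the transgene Col2.3GFP, whose collagen type I promoter fragment switches on green fluorescent protein (GFP) as cells enter the osteoblast lineage. The groups used were osteoblast cultures from embryonic stem cells (ESC-OB, 3 samples), cells sorted from such cultures for GFP (sorted GFP+, 3), undifferentiated embryonic stem cells (ESC, 3), osteoblast cultures from induced pluripotent stem cells (iPSC-OB, 2) and undifferentiated induced pluripotent stem cells (iPSC, 2). They hold 13 of the 22 samples. Cultured calvarial osteoblasts and bone cells of high or low GFP signal, 3 samples each, were not analysed here. For ESC-OB, sorted GFP+ and iPSC-OB embryoid bodies formed over 6 days once LIF, the MEK inhibitor PD0325901 and the GSK3 inhibitor CHIR99021 had been withdrawn. Retinoic acid (0.1 µM) was present between day 3 and day 5, osteogenic medium came next, and differentiation lasted 35 to 40 days. Passage numbers in the labels are 20 to 30 (ESC-OB and ESC) and 10 to 20 (iPSC-OB and iPSC), with none for sorted GFP+. Stem cells were kept on mouse embryonic fibroblast feeders or without feeders, and libraries came from purified messenger RNA or, for scarce RNA, from an ultra-low-input kit. Which sample had which, and whether replicates were separate cultures, was not given in the sources used here, so each p-value measures the spread between these samples only.

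The deposited tables give comparisons of groups and no value per sample. Each fold change below is a log2 value from the authors' deposited table with the authors' standard error after ±, and "rose" or "fell" is used where the authors' adjusted p was under 0.05. A positive value was read as higher in the differentiated cells, because the pluripotency genes Pou5f1, Nanog and Esrrb had log2 values between -14.10 and -7.71 in the authors' deposited tables. Group levels are estimates in normalised reads made from the authors' base means and fold changes, and have no error of their own. Library sizes were estimated at 6.37 to 10.9 M (ESC-OB), 21.2 to 28.5 M (sorted GFP+), 4.25 to 18.5 M (ESC), 9.59 to 16.8 M (iPSC-OB) and 9.91 to 12.4 M reads (iPSC). For iPSC the tables read as 3 libraries, against 2 in the labels. A floor of 3 reads over a group stands for 1.28, 0.459, 1.22, 1.32 and 1.05 normalised reads in these groups in the same order, and covers counting error only. In cultures and sorted cells alike, fewer cells of a type and less RNA per cell cannot be told apart. Of 10 osteoblast markers, 6 rose and 2 fell in ESC-OB, 8 rose and 1 fell in sorted GFP+, and 7 rose and 1 fell in iPSC-OB, by the authors' deposited tables. The 8 pluripotency markers fell in each comparison. Col1a2, a type I collagen chain, had the largest rise of the osteoblast markers in ESC-OB and sorted GFP+ (11.73 ± 0.49 and 12.58 ± 0.49) and Pth1r, the parathyroid hormone receptor, in iPSC-OB (5.47 ± 0.47), and the pluripotency genes that fell most were Tdgf1 in ESC-OB and iPSC-OB and Esrrb in sorted GFP+, by the authors' deposited tables. Alpl, an early osteoblast enzyme that stem cells also express, was among the osteoblast markers that fell, with log2 values of -4.93, -3.02 and -3.35 in the authors' deposited tables. Col1a2 had 13762 normalised reads in iPSC-OB and 3711 in iPSC, beside 27201 in ESC-OB and 8.01 in ESC, from tables normalised separately. The iPSC reference thus held this transcript before differentiation, and changes in iPSC-OB are against that reference. The source of these reads was not tested.

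Promoter sequences were taken from RefSeq (GRCm38.p6), which matched 68 of the 83 members, 65 by symbol and the others by an older symbol. The 250 bases before the start site were searched on both strands for a core of sites of the respiratory factor NRF1, spelled GCGC, any 2 bases and GCGC again, and for CCGGAAG, a core of sites of ETS factors such as GABP. NRF1 and GABP are textbook regulators of respiratory chain genes. The NRF1 string was in 13 of 68 members (19.1%), against 9.04% of 14419 genes of the tables with a promoter and 4.98% of all 32851 windows. The ETS string was in 12 members (17.6%), against 11.6% of genes of the tables and 6.91% of windows. A match is a description of the letters and not a bound site, and the NRF1 and ETS strings do not overlap in the sequences shown. The first pair shows members that hold the strings, the second pair shows a general subunit and its testis isoform, and Cox7b is shown as the general complex IV subunit with the largest fall in ESC-OB and in sorted GFP+; capitals mark the NRF1 and ETS strings. The windows are chr13:74350241-74350490, minus strand, for Sdha, chr5:115348959-115349208, minus strand, for Cox6a1, chr7:30626115-30626364, minus strand, for Cox6b1, chr7:4753095-4753344, minus strand, for Cox6b2, and chrX:106015450-106015699, plus strand, for Cox7b, each read 5′ to 3′ towards the start site.
Sdha: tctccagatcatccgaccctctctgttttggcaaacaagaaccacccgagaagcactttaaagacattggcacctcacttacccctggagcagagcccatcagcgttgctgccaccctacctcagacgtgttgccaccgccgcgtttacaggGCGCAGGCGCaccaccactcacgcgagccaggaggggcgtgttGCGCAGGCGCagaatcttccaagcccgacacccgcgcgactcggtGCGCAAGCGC
Cox6a1: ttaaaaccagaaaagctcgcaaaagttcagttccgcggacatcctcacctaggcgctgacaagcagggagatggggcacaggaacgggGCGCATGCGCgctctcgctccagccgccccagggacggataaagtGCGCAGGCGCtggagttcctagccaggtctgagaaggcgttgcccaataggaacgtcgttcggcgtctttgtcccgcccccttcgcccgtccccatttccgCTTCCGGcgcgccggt
Cox6b1: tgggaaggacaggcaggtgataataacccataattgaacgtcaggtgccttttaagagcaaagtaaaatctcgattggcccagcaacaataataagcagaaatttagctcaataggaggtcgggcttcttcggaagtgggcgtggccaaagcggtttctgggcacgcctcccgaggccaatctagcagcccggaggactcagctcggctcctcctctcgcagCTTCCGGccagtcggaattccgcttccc
Cox6b2: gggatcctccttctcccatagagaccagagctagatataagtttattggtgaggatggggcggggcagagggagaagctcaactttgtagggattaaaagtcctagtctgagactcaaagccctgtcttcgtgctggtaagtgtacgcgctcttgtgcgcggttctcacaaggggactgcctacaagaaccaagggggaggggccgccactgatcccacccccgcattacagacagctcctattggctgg
Cox7b: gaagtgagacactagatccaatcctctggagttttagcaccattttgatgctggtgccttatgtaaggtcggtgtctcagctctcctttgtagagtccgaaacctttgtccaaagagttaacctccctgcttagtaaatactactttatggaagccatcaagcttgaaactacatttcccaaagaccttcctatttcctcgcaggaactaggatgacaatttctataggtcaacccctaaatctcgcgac
Sdha holds the NRF1 string at 3 places and Cox6a1 at 2, with 1 ETS string, all within the 250 bases. Cox6b1 holds 1 ETS string. Cox6b2 and Cox7b hold neither string in this window.

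ESC-OB against ESC asks how the transcripts of the respiratory chain differ between osteoblast cultures and the cells they came from. They were mostly lower: of 82 members with an adjusted p in the authors' deposited table, 6 rose, 49 fell and 27 did not pass the test. Over all genes tested there, 69.6% passed, 38.6% higher and 31.0% lower, so the share of members that fell (59.8%) stood above the background and the share that rose (7.32%) below it. The median log2 change was -0.56 for the members and 0.26 for all genes tested in the authors' deposited table. The median of all genes at a base mean of 10 or more was 0.19, and against that median 5 members were higher and 54 lower. On that scale 35.4% of all genes were higher and 34.6% lower. Summed over the members, the estimated level was 84759 normalised reads in ESC-OB and 140190 in ESC.

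**Figure D1:**
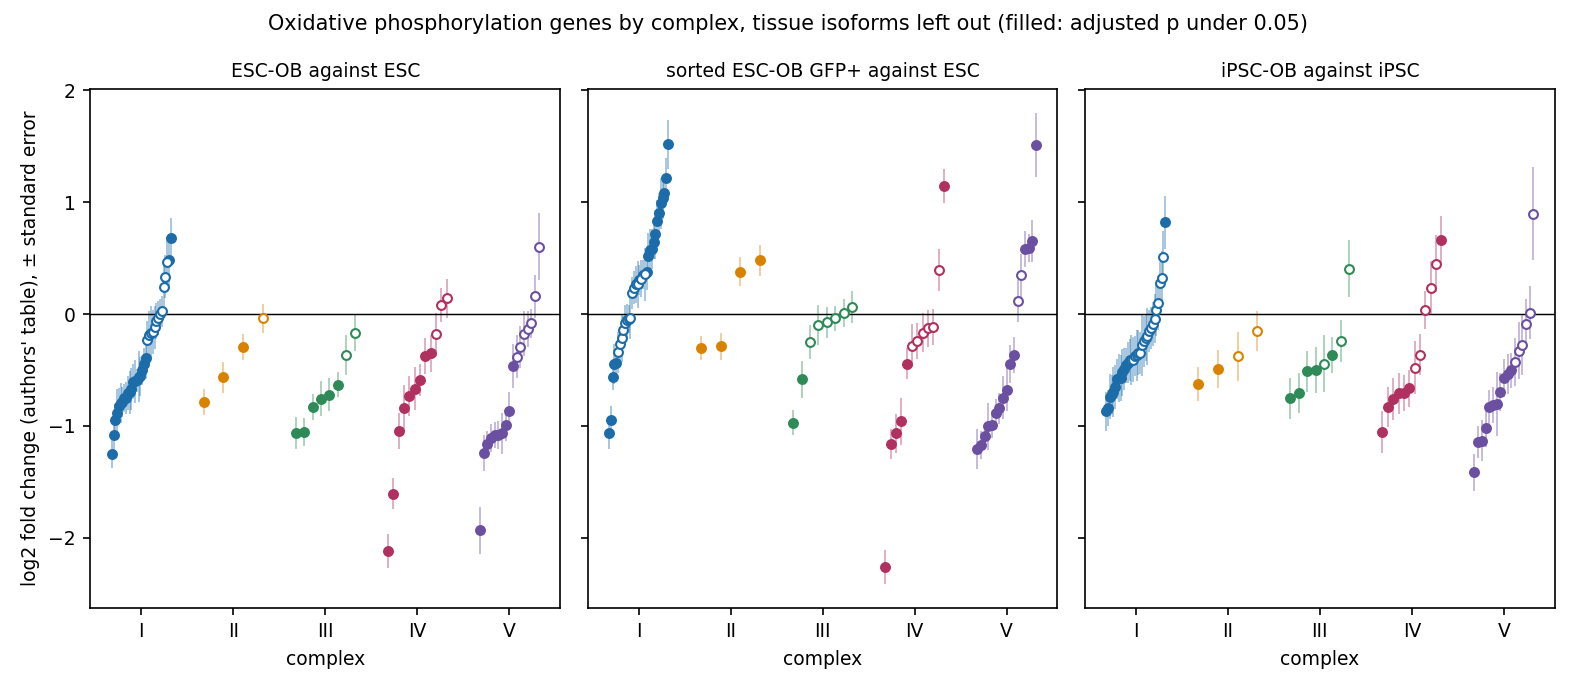
Log2 fold change of each member in the authors' deposited tables (vertical axis, bars are the authors' standard errors) by complex (horizontal axis), with the 3 comparisons side by side and the tissue isoforms left out. Filled points passed an adjusted p of 0.05; without the isoforms 2 members rose and 48 fell in ESC-OB, 22 rose and 25 fell in sorted GFP+, and 2 rose and 37 fell in iPSC-OB.

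Complex I oxidises NADH, and 20 of its 34 members fell while 2 rose in ESC-OB by the authors' deposited table. Its core subunits carry the flavin and the iron-sulfur clusters, and most of those named here fell. Ndufv2, a core subunit with an iron-sulfur cluster, had the largest fall of the complex, with estimated levels of 920.2 normalised reads in ESC-OB and 2183 in ESC (-1.25 ± 0.13 in the authors' deposited table, adjusted p = 1.15e-21). Ndufs1, the largest iron-sulfur subunit, changed by -0.95 ± 0.14 (adjusted p = 4.77e-11 in the authors' deposited table). Ndufv1, which binds the flavin and NADH, changed by -0.45 ± 0.14 (adjusted p = 0.00235 in the authors' deposited table). Ndufs8 and Ndufs7, core subunits on the path of electrons to ubiquinone, fell by 0.60 and 0.40 on the log2 scale in the authors' deposited table. Ndufs3, another core subunit, did not pass, at 724.9 normalised reads in ESC-OB and 723.4 in ESC. Ndufs4, an accessory subunit needed for a stable complex, rose to 409.4 normalised reads in ESC-OB, against 256.3 in ESC (0.68 ± 0.19 in the authors' deposited table, adjusted p = 5.04e-04). Ndufa6, an accessory subunit, was the other member that rose (0.48 ± 0.23 in the authors' deposited table, adjusted p = 0.0499), a value at the threshold that no longer passed against the median of all genes.

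Complexes II and III had no member that rose. In complex II, Sdhd, a membrane anchor, fell most, with 1068 normalised reads in ESC-OB and 1841 in ESC (-0.79 ± 0.11 in the authors' deposited table, adjusted p = 9.15e-12). The catalytic subunits Sdhb, which holds iron-sulfur clusters, and Sdha, which binds flavin, fell by 0.56 and 0.29 on the log2 scale in the authors' deposited table, while Sdhc, the other anchor, was at -0.04 ± 0.13 and did not pass. In complex III, 6 of 8 members fell by the authors' deposited table. Uqcrc1, a core protein, had 1563 normalised reads in ESC-OB and 3251 in ESC, and Uqcr10, a small accessory subunit, had 662.9 in ESC-OB and 1382 in ESC, and both changed by -1.06 on the log2 scale in the authors' deposited table. Uqcrfs1, the Rieske iron-sulfur protein, and Uqcrc2, the other core protein, fell by 0.76 and 0.63 on the log2 scale in the authors' deposited table. Uqcrb and Uqcrh missed the threshold, at -0.37 ± 0.18 and -0.17 ± 0.16 in the authors' deposited table.

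Complex IV held both the largest falls and the largest rises. Of its 10 general subunits 8 fell and none rose by the authors' deposited table. Cox7b, a small subunit at the membrane, had 887.0 normalised reads in ESC-OB and 3842 in ESC (-2.11 ± 0.15 in the authors' deposited table, adjusted p = 3.00e-42). Cox5a, a subunit on the matrix side, had 1054 normalised reads in ESC-OB and 3205 in ESC (-1.60 ± 0.14 in the authors' deposited table, adjusted p = 1.21e-30). Cox7c, Cox7a2, Cox6c, Cox5b, Cox6b1 and Cox4i1 fell by between 0.35 and 0.84 on the log2 scale in the authors' deposited table. Cox6a1 and Cox8a missed the threshold, at 0.08 ± 0.15 and -0.18 ± 0.19 in the authors' deposited table. All 4 members of complex IV that rose were isoforms, namely Cox6a2, Cox4i2, Ndufa4l2 and Cox8b, and they are described further below.

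Complex V had 10 members that fell and none that rose of 17. The catalytic F1 head fell: Atp5b, the beta subunit and the member with the highest level, had 9318 normalised reads in ESC-OB and 20871 in ESC (-1.16 ± 0.12, adjusted p = 5.88e-22 in the authors' deposited table), and Atp5a1, the alpha subunit, had 6663 in ESC-OB and 14352 in ESC (-1.11 ± 0.12, adjusted p = 4.76e-19). Atp5c1, the gamma subunit that turns in the head, changed by -0.99 ± 0.14 (adjusted p = 9.72e-12 in the authors' deposited table), while the delta and epsilon subunits Atp5d and Atp5e did not pass (-0.08 ± 0.13 and 0.16 ± 0.19). Subunit c, which forms the proton-driven ring, is made from 3 genes with different targeting peptides and the same mature protein. Atp5g1 had 723.9 normalised reads in ESC-OB and 2760 in ESC (-1.93 ± 0.21, adjusted p = 2.53e-19 in the authors' deposited table), and Atp5g3 had 1311 in ESC-OB and 3100 in ESC (-1.24 ± 0.16, adjusted p = 1.13e-13). Atp5g2 was at -0.38 ± 0.19 in the authors' deposited table and did not pass. The summed estimated level of the 3 genes was 3522 normalised reads in ESC-OB and 7795 in ESC.

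Sorted GFP+ against ESC asks the same of the cells with an active collagen reporter. Rises and falls were near equal in number: 26 members rose, 27 fell and 29 did not pass of 82 by the authors' deposited table, with a median log2 change of -0.07, against 0.28 for all genes tested there. Over all genes 71.5% passed, 39.1% higher and 32.4% lower, and the members' shares were 31.7% higher and 32.9% lower. The split depends on the scale: against the median of all genes at a base mean of 10 or more, which was 0.21, 18 members were higher and 35 lower, and all genes were 35.7% higher and 35.9% lower. The estimated level summed over the members was 111449 normalised reads in sorted GFP+ and 140190 in ESC. The ESC libraries are those of the comparison above, so the values of both are given side by side and not as separate evidence.

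Of the 34 complex I members, 15 rose and 5 fell in sorted GFP+ by the authors' deposited table. These are 44.1% and 14.7%, against 39.1% and 32.4% of all genes. The share that rose was thus near the background and the share that fell below it. Against the median of all genes, 9 members of complex I were higher and 8 lower. Ndufa2, an accessory subunit of the part that oxidises NADH, rose most, with 1035 normalised reads in sorted GFP+ and 362.0 in ESC (1.52 ± 0.22 in the authors' deposited table, adjusted p = 1.22e-11). Ndufs7, the core subunit with the last iron-sulfur cluster before ubiquinone, had 1537 normalised reads in sorted GFP+ and 663.6 in ESC (1.21 ± 0.18 in the authors' deposited table, adjusted p = 3.49e-11). Ndufv1 and Ndufs3 also rose, by 0.30 ± 0.14 and 0.35 ± 0.13 in the authors' deposited table, neither of which passed against the median of all genes. Core subunits were among those that fell: Ndufs1 had 803.6 normalised reads in sorted GFP+ and 1681 in ESC (-1.06 ± 0.14, adjusted p = 3.85e-14 in the authors' deposited table), and Ndufv2 changed by -0.94 ± 0.13. Ndufs8 missed the threshold (0.23 ± 0.15 in the authors' deposited table).

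In complex II, Sdhb had 1612 normalised reads in sorted GFP+ and 1156 in ESC, and Sdhc had 1206 in sorted GFP+ and 928.4 in ESC. Both rose in the authors' deposited table (0.48 ± 0.14 and 0.38 ± 0.13), and neither passed against the median of all genes. Sdhd and Sdha fell, at -0.30 ± 0.11 and -0.29 ± 0.12 in the authors' deposited table. Complex III had no member that rose and 2 that fell. Uqcrc2 had 1289 normalised reads in sorted GFP+ and 2526 in ESC (-0.97 ± 0.11, adjusted p = 3.61e-17 in the authors' deposited table), and Uqcrh, the hinge subunit, changed by -0.58 ± 0.16. Uqcrc1, Uqcrfs1 and Uqcrb missed the threshold, at 0.01 ± 0.12, -0.25 ± 0.16 and -0.10 ± 0.18 in the authors' deposited table.

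Among the general subunits of complex IV in sorted GFP+, 4 fell and 1 rose of 10. Cox7b had the largest fall, with 800.4 normalised reads in sorted GFP+ and 3842 in ESC (-2.26 ± 0.15 in the authors' deposited table, adjusted p = 1.08e-49). Cox5a, Cox7c and Cox5b changed by -1.16 ± 0.13, -0.96 ± 0.21 and -0.45 ± 0.14 in the authors' deposited table. Cox6a1, the general form of subunit 6a, rose to 3333 normalised reads in sorted GFP+, against 1509 in ESC (1.14 ± 0.15 in the authors' deposited table, adjusted p = 1.00e-13). In complex V, 11 members fell and 4 rose of 17 by the authors' deposited table. Atp5a1 had 6381 normalised reads in sorted GFP+ and 14352 in ESC (-1.17 ± 0.12, adjusted p = 2.53e-21 in the authors' deposited table), and Atp5b had 11330 in sorted GFP+ and 20871 in ESC (-0.88 ± 0.12, adjusted p = 2.98e-13). Atp5k, a small membrane subunit, had the largest fall of the complex (-1.21 ± 0.18 in the authors' deposited table, adjusted p = 6.33e-11). The 3 genes of subunit c fell, at -0.75 ± 0.19 for Atp5g2 and -0.37 ± 0.16 for Atp5g3 in the authors' deposited table and at 1377 normalised reads in sorted GFP+ and 2760 in ESC for Atp5g1 (adjusted p = 3.09e-06). Atp5d, Atp5e, Atp5j of the peripheral stalk and Atp5s were the 4 that rose, and Atp5s had the largest value (1.51 ± 0.29 in the authors' deposited table, adjusted p = 2.68e-07).

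The difference between the sorted and the unsorted change was computed for every gene as the difference of the authors' 2 log2 values, with a z test on their standard errors and Benjamini-Hochberg adjustment over 19781 genes. Of the 83 members, 28 were higher in sorted GFP+ than in ESC-OB and 2 were lower, with a median difference of 0.48. Over all genes 22.7% passed, 10.7% higher and 12.1% lower, with a median of 0.06. The members that were higher lay in every complex: 15 of 34 in complex I, 2 of 4 in complex II, 4 of 8 in complex III, 3 of 20 in complex IV and 4 of 17 in complex V. The test counts the shared ESC spread a second time. With a correlation of 0.5 between the folds, 47 members were higher and 4 lower. At that setting 35.3% of all genes passed, 17.6% higher and 17.6% lower.

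**Figure D2:**
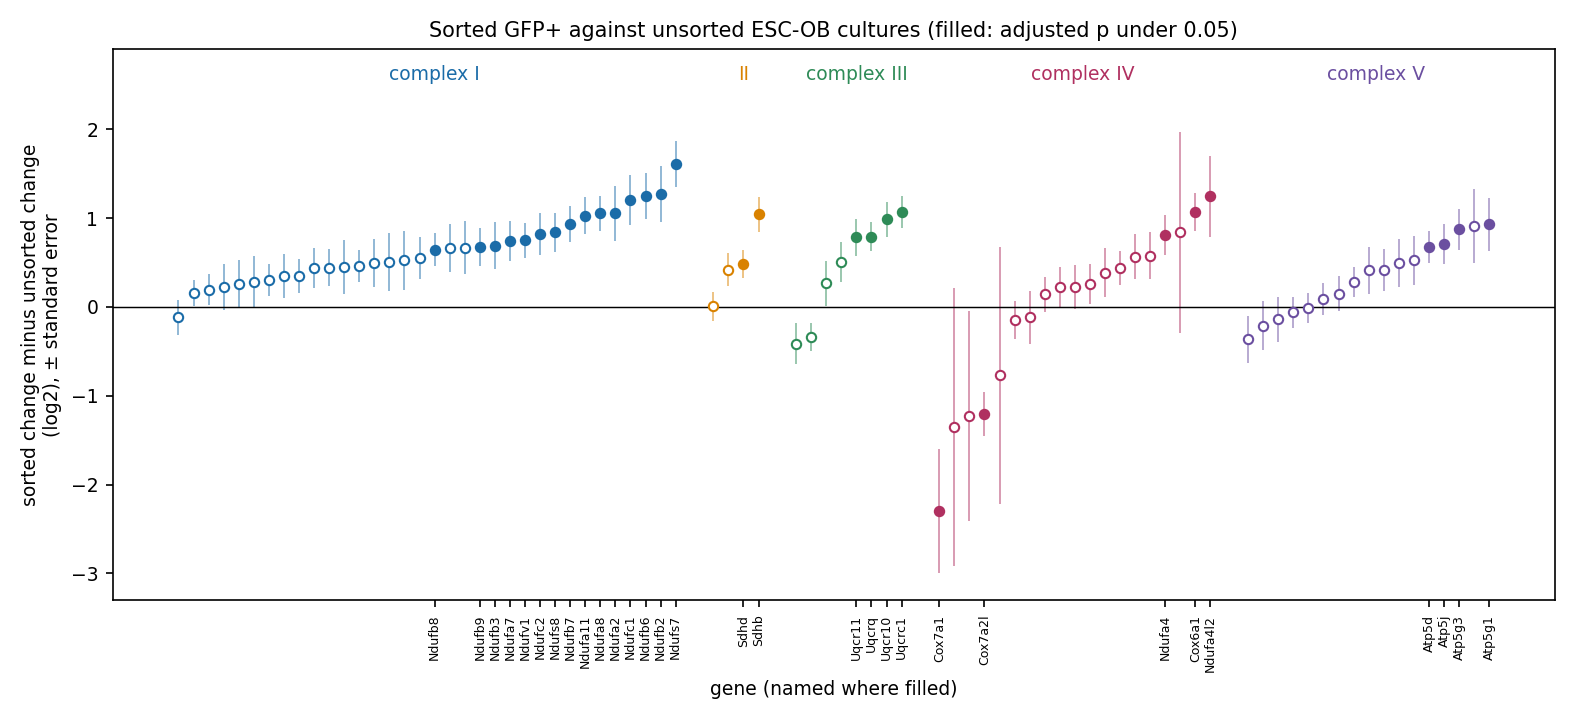
Difference between the sorted and the unsorted log2 change for 82 members (vertical axis, bars are standard errors), ordered within each complex. Cox8c, under the floor in ESC-OB, sorted GFP+ and ESC, is left out. Filled and named points passed an adjusted p of 0.05: 28 lie above 0 and 2, Cox7a1 and Cox7a2l, lie below.

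The 6 largest differences upwards were those of Ndufs7, Ndufb2, Ndufa4l2, Ndufb6, Ndufc1 and Uqcrc1. Ndufs7 had 1537 normalised reads in sorted GFP+ and 504.5 in ESC-OB, a difference of 1.61 ± 0.26 (adjusted p = 9.42e-09). Ndufb2 and Ndufb6, accessory subunits of the membrane arm, differed by 1.27 ± 0.31 (adjusted p = 4.93e-04) and 1.25 ± 0.26 (adjusted p = 2.16e-05), and Ndufc1, another accessory subunit, by 1.20 ± 0.28 (adjusted p = 1.58e-04). Uqcrc1 had 3279 normalised reads in sorted GFP+ and 1563 in ESC-OB, a difference of 1.07 ± 0.18 (adjusted p = 4.15e-08). Sdhb (1.04 ± 0.20), Cox6a1 (1.06 ± 0.21) and Atp5g1 (0.93 ± 0.30) were higher in sorted GFP+ in their complexes. Subunits with little difference stood beside them: Ndufs1, Sdha, Uqcrc2, Cox7b and Atp5a1 differed by -0.12 ± 0.20, 0.01 ± 0.17, -0.34 ± 0.16, -0.15 ± 0.21 and -0.06 ± 0.17, and none of these passed. Cox7a1, the isoform of heart and skeletal muscle, was lower in sorted GFP+, at 15.8 normalised reads against 77.4 in ESC-OB (-2.30 ± 0.70, adjusted p = 0.0063). Cox7a2l, a factor that joins complexes III and IV into supercomplexes, was also lower, at 651.1 normalised reads in sorted GFP+ and 1500 in ESC-OB (-1.20 ± 0.24, adjusted p = 1.18e-05).

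Transcript length moved with this difference across all genes. Over 10320 genes of known length at a base mean of 100 or more, the Spearman correlation of length with the sorted minus unsorted difference was -0.57, as a description over genes that share the same libraries. The members are short, with a median length of 759 nucleotides and 53 of 82 under 1000. Among genes under 1000 nucleotides, the median difference was 0.57 for 48 members and 0.71 for 524 other genes. From 1000 to under 2000 nucleotides it was 0.35 for 21 members and 0.62 for 2076 other genes. In these ranges the members' median lay below that of other genes. Under 500 nucleotides it was above, at 0.67 for 5 members and 0.34 for 32 other genes, and from 2000 to under 4000 nucleotides the medians were 0.19 for 7 members and 0.18 for 4278 other genes. There were 3366 other genes of 4000 or more, with a median of -0.57, and no member. Short genes also moved in the comparisons with ESC, where 524 other genes under 1000 nucleotides had medians of -0.36 in ESC-OB and 0.32 in sorted GFP+, against -0.51 and -0.03 for the 48 members. In iPSC-OB the medians under 1000 nucleotides were -0.37 for 47 members and -0.29 for 470 other genes. The part of transcript length, or of the library kits, in these results was not tested.

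**Figure D3:**
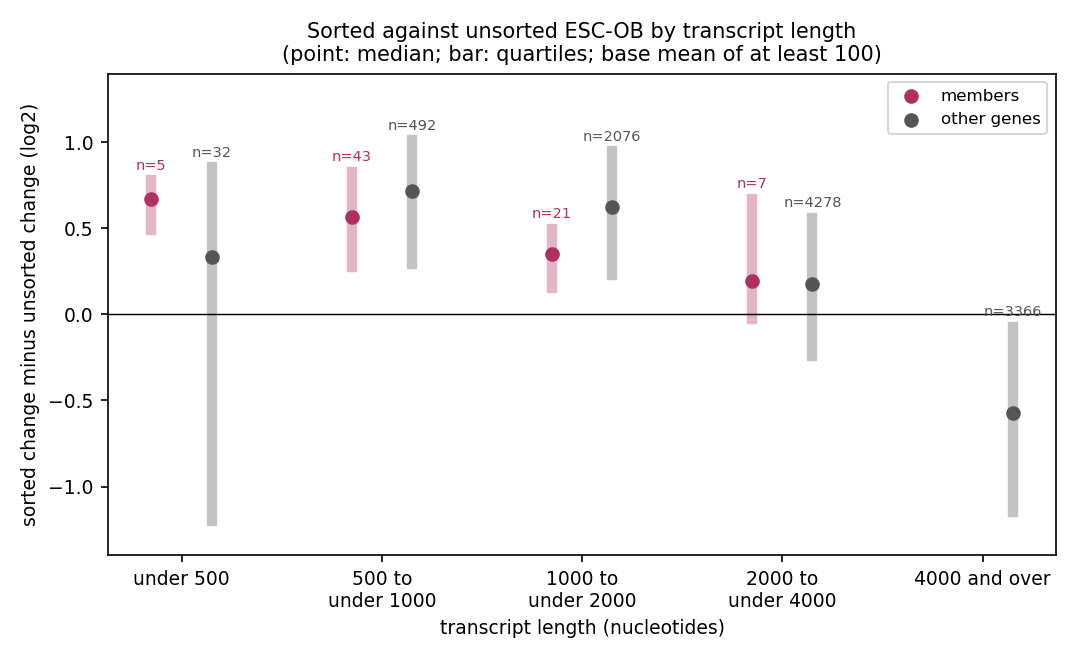
Difference between the sorted and the unsorted log2 change (vertical axis) by transcript length in nucleotides (horizontal axis), for members and for other genes with a base mean of at least 100. Points are medians, bars run from the first to the third quartile and n is the number of genes; other genes have a median of 0.72 at 500 to under 1000 nucleotides and -0.57 at 4000 and over.

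iPSC-OB against iPSC asks whether osteoblast cultures of another pluripotent source show the same. Members again fell more often than they rose: 6 rose, 37 fell and 39 did not pass of 82 by the authors' deposited table, with a median log2 change of -0.42, against 0.15 for all genes tested. Over all genes 49.2% passed, 26.1% higher and 23.1% lower, and the members' shares were 7.32% higher and 45.1% lower. Summed over the members, the estimated level was 72441 normalised reads in iPSC-OB and 107441 in iPSC.

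By complex, 13 members of complex I fell and 1 rose, 2 of complex II fell, 5 of complex III fell, 6 of complex IV fell and 5 rose, and 11 of complex V fell by the authors' deposited table. Among these 11 was Atp5sl, which is not a subunit of the ATP synthase (-0.80 ± 0.29, adjusted p = 0.0123 in the authors' deposited table). Atp5g1 had the largest fall, with 464.9 normalised reads in iPSC-OB and 1239 in iPSC (-1.41 ± 0.16 in the authors' deposited table, adjusted p = 2.00e-16). Atp5a1 had 5608 normalised reads in iPSC-OB and 12364 in iPSC, and Atp5b had 7853 in iPSC-OB and 17228 in iPSC, changes of -1.14 ± 0.14 and -1.13 ± 0.18 in the authors' deposited table. Cox7c, a small subunit, was the general complex IV subunit with the largest fall (-1.05 ± 0.19 in the authors' deposited table, adjusted p = 1.49e-07). Ndufv1 led the falls of complex I with 580.0 normalised reads in iPSC-OB and 1059 in iPSC (-0.87 ± 0.17 in the authors' deposited table, adjusted p = 2.50e-06), Sdha those of complex II (-0.62 ± 0.15) and Uqcr11, an accessory subunit, those of complex III (-0.75 ± 0.19). Ndufs1, Ndufv2 and Ndufs8 fell by 0.84, 0.72 and 0.57 on the log2 scale in the authors' deposited table, while Ndufs7 (-0.41 ± 0.20) and Ndufs3 (-0.09 ± 0.20) did not pass. Sdhb, Uqcrc1, Uqcrfs1, Uqcrc2, Cox5a, Cox5b and Atp5c1 fell too, by between 0.37 and 0.83 on the log2 scale in the authors' deposited table, and Sdhc, Sdhd and Uqcrb did not pass. The members that rose were Ndufa6 (0.82 ± 0.24 in the authors' deposited table, adjusted p = 0.00176), Cox7a2l and the isoforms Cox4i2, Cox6a2, Ndufa4l2 and Cox6b2.

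The change in iPSC-OB was set against that in ESC-OB with the same z test, over 18632 genes in both tables. Of 82 members 6 differed, 3 higher and 3 lower in iPSC-OB, where 28.2% of all genes differed, 11.0% higher and 17.2% lower. The median difference was 0.09 for the members and -0.07 for all genes. Cox7b and Cox5a fell less in iPSC-OB, by 0.76 and 0.83 on the log2 scale in the authors' deposited table, against 2.11 and 1.60 in ESC-OB, differences of 1.35 ± 0.24 (adjusted p = 4.36e-07) and 0.77 ± 0.22 (adjusted p = 0.00339). In estimated level, Cox7b had 841.3 normalised reads in iPSC-OB and 1427 in iPSC, beside 887.0 in ESC-OB and 3842 in ESC, from tables normalised separately. Ndufs4 was at -0.04 ± 0.22 in iPSC-OB in the authors' deposited table, against 0.68 ± 0.19 in ESC-OB, a difference of -0.72 ± 0.29 (adjusted p = 0.0446). The other 3 that differed were the isoforms Cox6a2, Ndufa4l2 and Cox6b2.

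**Figure D4:**
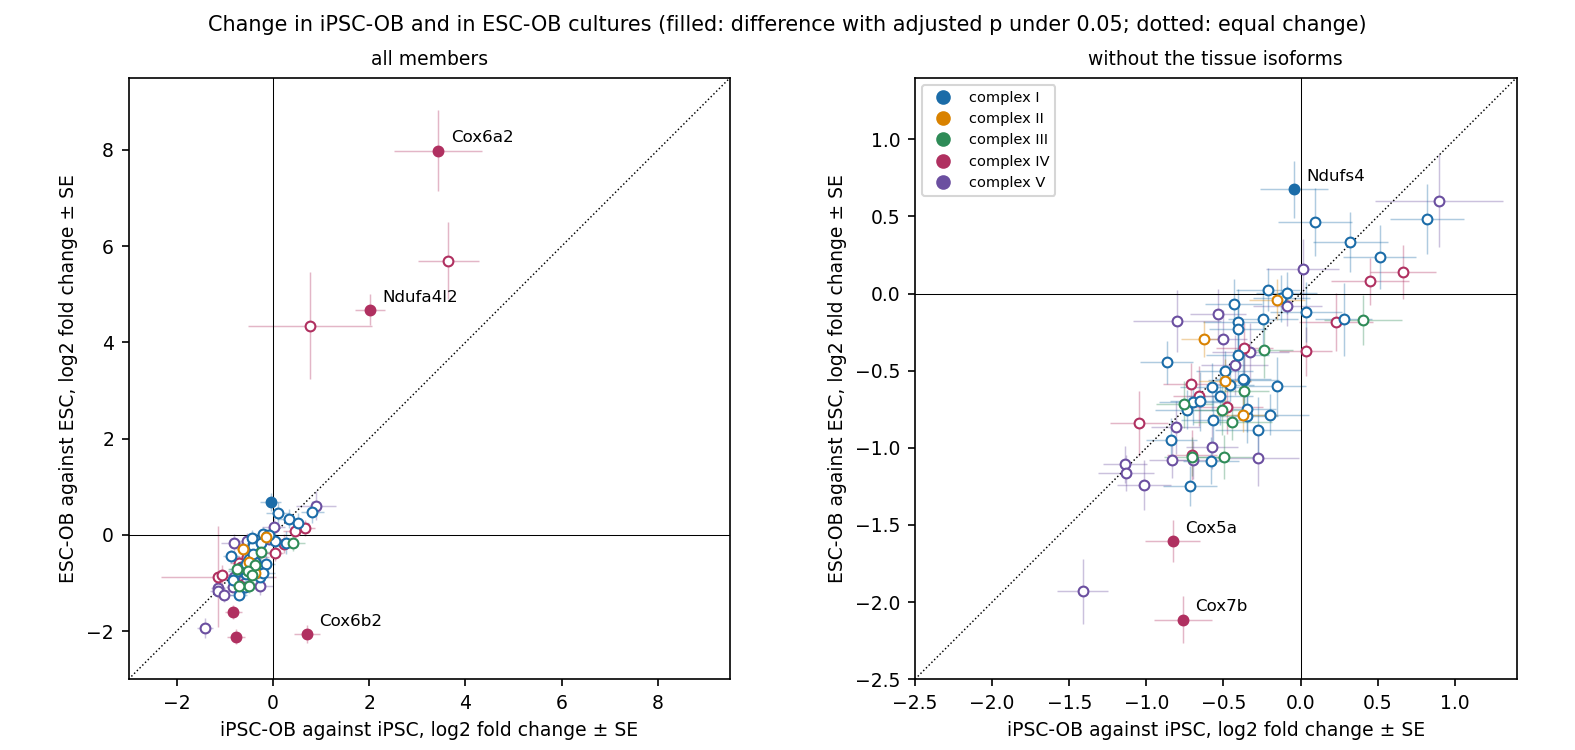
Log2 fold change of each member in iPSC-OB against iPSC (horizontal axis) and in ESC-OB against ESC (vertical axis), from the authors' deposited tables with their standard errors, for all members and without the tissue isoforms. Points on the dotted line changed equally; the 6 filled and named points differed with an adjusted p under 0.05.

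The isoforms of complex IV spanned the widest range of changes among the members, with log2 values between -2.06 and 7.99 in ESC-OB in the authors' deposited table. Each was set against its general partner as a share of both levels per 1000 bases of transcript, an estimate with no error of its own. Ndufa4l2, known as a target of hypoxia-inducible factors and expressed in pericytes, had 593.0 normalised reads in ESC-OB, 1408 in sorted GFP+ and 23.2 in ESC. It rose by 4.68 ± 0.32 in ESC-OB (adjusted p = 4.16e-46) and 5.92 ± 0.32 in sorted GFP+ (adjusted p = 2.15e-74) in the authors' deposited tables, and was 1.25 ± 0.46 higher in sorted GFP+ than in ESC-OB (adjusted p = 0.0302). Its partner Ndufa4 had 857.2, 1498 and 1768 normalised reads in the same groups, so Ndufa4l2 made up 28.2% of the pair in ESC-OB, 34.8% in sorted GFP+ and 0.741% in ESC. In iPSC-OB it had 310.3 normalised reads and in iPSC 76.7 (2.02 ± 0.31, adjusted p = 5.91e-10 in the authors' deposited table), 19.5% and 3.55% of the pair, a smaller rise than in ESC-OB by 2.66 ± 0.45 (adjusted p = 5.91e-08). Its exons share 3.43% of their bases with Shmt2 on the other strand, and the use of strand in counting was not given in the sources used here.

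Cox4i2, the form of subunit 4 found in lung and in pericytes and induced at low oxygen, had 92.8 normalised reads in ESC-OB, 166.2 in sorted GFP+ and 1.79 in ESC, just above the floor. It rose by 5.70 ± 0.80 in ESC-OB (adjusted p = 4.56e-12) and 6.54 ± 0.80 in sorted GFP+ (adjusted p = 9.85e-16) in the authors' deposited tables, and by 3.64 ± 0.64 in iPSC-OB (adjusted p = 8.28e-08), where it had 62.5 normalised reads against 5.00 in iPSC. Its share of the Cox4 pair stayed small, 3.62% in ESC-OB, 5.45% in sorted GFP+ and 0.0568% in ESC. Of 12 smooth muscle and pericyte markers, 10 rose in ESC-OB and 10 rose and 1 fell in sorted GFP+ in the authors' deposited tables, and 7 rose and 1 fell of 11 tested in iPSC-OB. Their summed level was 6453 normalised reads in ESC-OB, 11422 in sorted GFP+ and 947.4 in ESC, and 11086 in iPSC-OB and 6743 in iPSC. Acta2, smooth muscle actin, had the largest rise of the list in ESC-OB and sorted GFP+, with 1986 normalised reads in ESC-OB, 5437 in sorted GFP+ and 4.505 in ESC. In iPSC-OB it was Myh11, a smooth muscle myosin, with 663.1 normalised reads in iPSC-OB and 43.9 in iPSC. Acta2 was already high in iPSC, at 1982 normalised reads, against 5119 in iPSC-OB. Notch3, a receptor of mural cells, was the one that fell in sorted GFP+ (-0.57 ± 0.20) and in iPSC-OB (-1.22 ± 0.30) in the authors' deposited tables. None of the 12 differed between the sorted and the unsorted change by the z test. Of 4 pericyte markers, Kcnj8 had 47.3 normalised reads in ESC-OB and 102.6 in sorted GFP+, and was under the floor in ESC. Abcc9 had 139.3 in ESC-OB and 77.9 in sorted GFP+, and was under the floor in ESC. Rgs5 had 96.8, 81.3 and 2.48 in ESC-OB, sorted GFP+ and ESC, and Higd1b was under the floor in ESC-OB, at 1.38 in sorted GFP+ and at 2.51 in ESC. Of 9 genes known to respond to hypoxia, 6 rose and 1 fell in ESC-OB, 7 rose and 2 fell in sorted GFP+, and 5 rose and 1 fell in iPSC-OB in the authors' deposited tables. Adm, the hormone adrenomedullin, rose most, with 700.2 normalised reads in ESC-OB, 1617 in sorted GFP+ and 10.3 in ESC, and with 505.7 in iPSC-OB and 44.6 in iPSC. The largest falls were those of the glucose transporter Slc2a1 in ESC-OB (-0.85 ± 0.14) and of the kinase Pdk1 in sorted GFP+ (-0.90 ± 0.32) and iPSC-OB (-1.94 ± 0.24) in the authors' deposited tables. The summed level of the 9 genes was 16650 normalised reads in ESC-OB, 16793 in sorted GFP+ and 8257 in ESC, and 38144 in iPSC-OB and 17211 in iPSC. The part of these cells or of low oxygen in the rise of Ndufa4l2 and Cox4i2 was not tested.

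**Figure D5:**
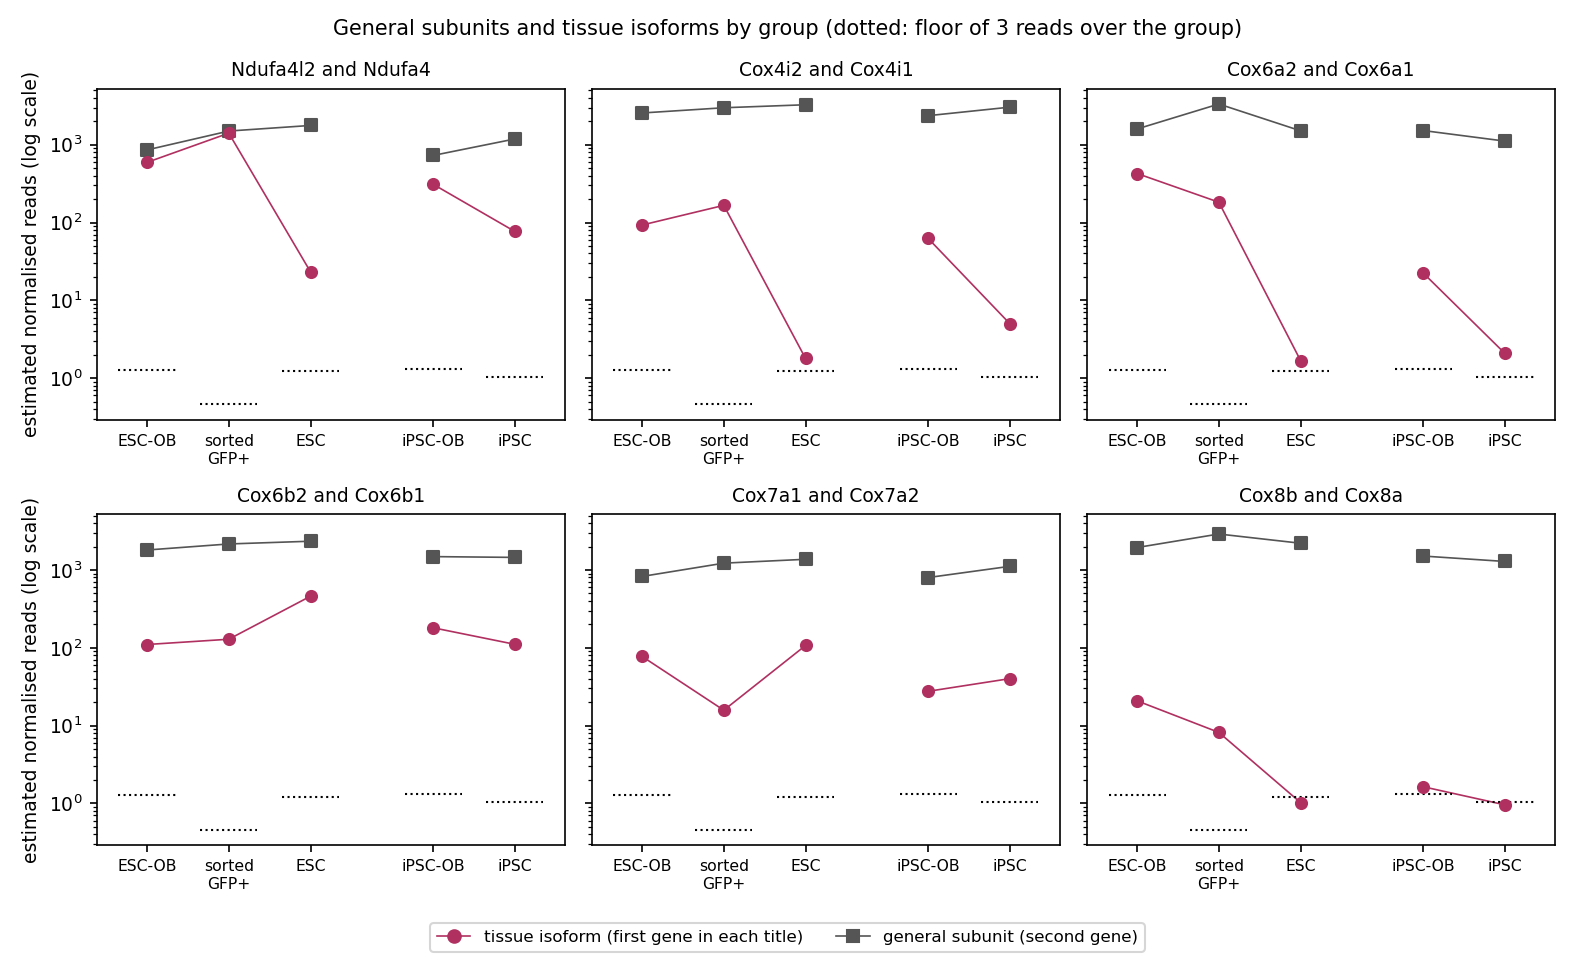
Estimated level in normalised reads (vertical axis, log scale) of 6 tissue isoforms and their general partners in each group (horizontal axis), with the floor of 3 reads over the group as dotted lines; the levels have no error of their own and normalisation was separate for ESC and iPSC tables. Levels are not corrected for transcript length; in sorted GFP+ Ndufa4l2 had 1408 and Ndufa4 1498 normalised reads, and per 1000 bases Ndufa4l2 was 34.8% of the pair, and Cox8b lies at or under the floor in ESC and iPSC.

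Cox6a2, the heart and skeletal muscle form of subunit 6a, had the largest rise of the members in ESC-OB. Its level was 426.5 normalised reads in ESC-OB, 182.4 in sorted GFP+ and 1.68 in ESC, just above the floor. The authors' deposited tables give 7.99 ± 0.84 for ESC-OB (adjusted p = 6.86e-21) and 6.76 ± 0.84 for sorted GFP+ (adjusted p = 2.12e-15). It made up 18.4% of the Cox6a pair in ESC-OB, 4.39% in sorted GFP+ and 0.0936% in ESC. In iPSC-OB and iPSC it made up 1.22% and 0.157%, at 22.5 and 2.08 normalised reads, the latter near the floor. Its rise was smaller in iPSC-OB than in ESC-OB by 4.55 ± 1.24 (adjusted p = 0.00166), while the sorted and unsorted changes did not differ past the threshold (-1.23 ± 1.18, adjusted p = 0.597). Cox6a2 shares 10.3% of its exon bases with Itgad on the other strand. Cox8b, the form of subunit 8 in heart, skeletal muscle and brown fat, had 20.8 normalised reads in ESC-OB, 8.17 in sorted GFP+ and 1.02 in ESC, under the floor, so it was at least 17.1-fold higher in ESC-OB and at least 6.70-fold higher in sorted GFP+. In iPSC-OB it had 1.64 normalised reads, and it was under the floor in iPSC.

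Cox7a1, the heart and skeletal muscle form of subunit 7a, went another way. It had 77.4 normalised reads in ESC-OB, 15.8 in sorted GFP+ and 107.0 in ESC, and fell in sorted GFP+ (-2.76 ± 0.50 in the authors' deposited table, adjusted p = 6.12e-08), while ESC-OB (-0.47 ± 0.49) and iPSC-OB (-0.54 ± 0.45) did not pass. Of 20 striated muscle markers, 17 rose and none fell of 18 tested in ESC-OB, 16 rose and none fell of 19 in sorted GFP+, and 11 rose and none fell of 18 in iPSC-OB in the authors' deposited tables. Their summed level was 32273 normalised reads in ESC-OB, 7742 in sorted GFP+ and 483.2 in ESC, and 10759 in iPSC-OB and 650.0 in iPSC. Myh7 and Myl3, sarcomere genes of heart and slow muscle, had 9702 and 1996 normalised reads in ESC-OB, 1112 and 1272 in sorted GFP+, and 13.1 and a value under the floor in ESC, while Myod1, which defines skeletal muscle, was under the floor in all 3. In iPSC-OB and iPSC Myh7 had 2895 and 30.3 normalised reads, Myl3 had 2685 and 12.5, and Myod1 had 2.05 and 1.90. Of 10 adipocyte markers, 6 could be tested in ESC-OB, where 3 rose and 1 fell, 3 of 6 rose and none fell in sorted GFP+, and 5 of 9 rose and none fell in iPSC-OB in the authors' deposited tables. Their summed level was 937.6 normalised reads in ESC-OB, 1923 in sorted GFP+ and 223.3 in ESC, and 1443 in iPSC-OB and 54.4 in iPSC. Most of it in the differentiated cells was Fabp4, a fatty acid binding protein, at 740.6 normalised reads in ESC-OB, 1696 in sorted GFP+ and 1039 in iPSC-OB. It was under the floor in ESC and at 4.17 in iPSC. Prdm16, a regulator of brown fat, was the one that fell in ESC-OB (-0.89 ± 0.38 in the authors' deposited table), and Ucp1, which defines brown fat, was under the floor in ESC-OB and ESC and at 1.38 normalised reads in sorted GFP+. The part of muscle cells or adipocytes in the rise of Cox6a2 and Cox8b was not tested.

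Of the 3 testis isoforms, Cox6b2 had the highest level in the stem cells. Cox6b2, the testis form of subunit 6b, fell to 110.1 normalised reads in ESC-OB and 128.7 in sorted GFP+, against 460.0 in ESC (-2.06 ± 0.19, adjusted p = 6.98e-28, and -1.84 ± 0.17, adjusted p = 9.71e-27, in the authors' deposited tables). In the iPSC table it rose, with 180.7 normalised reads in iPSC-OB and 110.8 in iPSC (0.71 ± 0.26, adjusted p = 0.0178 in the authors' deposited table), and the change differed from that in ESC-OB by 2.77 ± 0.32 (adjusted p = 7.76e-16). It made up 6.39% of the Cox6b pair in ESC-OB, 6.25% in sorted GFP+ and 18.01% in ESC, and 12.0% in iPSC-OB and 7.87% in iPSC. Cox7b2 had between 1.90 and 5.90 normalised reads in the groups and passed in no comparison, and Cox8c was under the floor in the 3 groups of its tables. Of 12 germ cell markers, 8 could be tested in ESC-OB and 6 of these fell, 6 of 9 fell in sorted GFP+ and 7 of 9 in iPSC-OB in the authors' deposited tables, and their summed level was 66.3 normalised reads in ESC-OB, 33.7 in sorted GFP+ and 911.0 in ESC, and 123.5 in iPSC-OB and 943.3 in iPSC. Dazl, an RNA-binding protein of germ cells, had the largest fall of the list in ESC-OB and sorted GFP+, with a level under the floor in ESC-OB, 0.736 normalised reads in sorted GFP+ and 295.3 in ESC. Mael, a protein of the piRNA pathway, had the largest in iPSC-OB, where it was under the floor, against 57.8 normalised reads in iPSC. The part of germ-like cells in its level was not tested.

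Cox7a2l, although named after subunit 7a, is the supercomplex factor named above. It had 1500 normalised reads in ESC-OB, 651.1 in sorted GFP+ and 1362 in ESC, and fell in sorted GFP+ (-1.06 ± 0.17 in the authors' deposited table, adjusted p = 1.76e-09). In iPSC-OB it rose to 1890 normalised reads, against 1193 in iPSC (0.66 ± 0.21 in the authors' deposited table, adjusted p = 0.00462), a change that did not differ from that in ESC-OB (0.14 ± 0.17) past the threshold (difference 0.52 ± 0.27, adjusted p = 0.144).

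Genes around the complexes gave a background to these changes. The 7 subunits and partners outside the rule all fell in ESC-OB, 3 fell and 1 rose in sorted GFP+, and 5 fell in iPSC-OB by the authors' deposited tables. Ndufab1, the acyl carrier protein of complex I, was the one that rose (0.37 ± 0.13 in the authors' deposited table). Cyct, the testis form of cytochrome c, fell most in each (-7.50 ± 0.64, -7.50 ± 0.43 and -5.85 ± 0.55 in the authors' deposited tables). Of 16 complex IV assembly factors, 9 fell and none rose in ESC-OB, 5 fell and 6 rose in sorted GFP+, and 4 fell and 1 rose in iPSC-OB. Lrpprc, which stabilises mitochondrial messenger RNA, had 628.5 normalised reads in ESC-OB, 400.9 in sorted GFP+ and 3230 in ESC, and 697.7 in iPSC-OB and 2791 in iPSC, the largest fall of this list in each (-2.36 ± 0.13 in ESC-OB and -3.01 ± 0.13 in sorted GFP+ in the authors' deposited tables, where it fell in iPSC-OB too). Cox14, an early assembly factor, rose most in sorted GFP+ (1.41 ± 0.14), and Surf1, linked to Leigh syndrome in humans, was the one that rose in iPSC-OB (0.60 ± 0.24), in the authors' deposited tables. Of 13 complex I assembly factors, 8 fell in ESC-OB, 6 fell and 2 rose in sorted GFP+, and 9 fell in iPSC-OB. Ndufaf6 (-1.92 ± 0.28), Ndufaf5 (-1.12 ± 0.21) and Ndufaf4 (-2.05 ± 0.29) had the largest falls in ESC-OB, sorted GFP+ and iPSC-OB in the authors' deposited tables, and Ndufaf3 the larger of the 2 rises in sorted GFP+ (1.03 ± 0.18). Of 7 assembly factors of complexes II and III, 4 fell in ESC-OB, 2 fell and 2 rose in sorted GFP+ and 1 fell in iPSC-OB, and of 3 of complex V, 2 fell and 1 rose, 1 fell and 1 rose, and 1 fell. Lyrm7, a chaperone of the Rieske protein, had the largest fall of the complex II and III factors in ESC-OB (-1.08 ± 0.31) and sorted GFP+ (-1.07 ± 0.29), and Uqcc2 was the one that fell in iPSC-OB (-0.93 ± 0.23) in the authors' deposited tables. Sdhaf1, which helps to build iron-sulfur clusters into Sdhb, rose most in sorted GFP+ (0.65 ± 0.22 in the authors' deposited table). Of the complex V factors, Tmem70 rose in ESC-OB (0.59 ± 0.16) and sorted GFP+ (1.20 ± 0.16), Atpaf1 fell most in both (-1.08 ± 0.16 and -0.77 ± 0.15), and Atpaf2 fell in iPSC-OB (-1.05 ± 0.24) in the authors' deposited tables.

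Genes of the tricarboxylic acid cycle, which supplies NADH and succinate, fell in 12 and rose in 3 of 16 cases in ESC-OB, fell in 10 and rose in 2 in sorted GFP+ and fell in 8 in iPSC-OB by the authors' deposited tables. Pdha1, of the pyruvate dehydrogenase complex, had the largest fall in sorted GFP+ (-1.95 ± 0.10 in the authors' deposited table), and Idh3g and Idh3a, subunits of isocitrate dehydrogenase, in ESC-OB and iPSC-OB (-2.05 ± 0.16 and -1.56 ± 0.23). Suclg2, of succinyl-CoA ligase, rose most in ESC-OB (0.71 ± 0.18) and Dld, shared by several dehydrogenase complexes, in sorted GFP+ (0.52 ± 0.14) in the authors' deposited tables. Of 18 genes of mitochondrial membranes and import, 17 fell in ESC-OB, 16 fell and 1 rose in sorted GFP+, and 16 fell and 1 rose in iPSC-OB by the authors' deposited tables. The medians of these genes were -1.50, -1.23 and -1.13, and mitochondrial content itself was not measured. Their summed level was 32644 normalised reads in ESC-OB, 31156 in sorted GFP+ and 91751 in ESC, and 30940 in iPSC-OB and 80197 in iPSC. The import channel Tomm40 fell most in ESC-OB (-2.75 ± 0.13), the outer membrane channel Vdac1 in sorted GFP+ (-3.36 ± 0.21) and the ATP/ADP carrier Slc25a5 in iPSC-OB (-2.47 ± 0.25) in the authors' deposited tables. Slc25a4, the carrier of heart and muscle, was the one that rose in sorted GFP+ (0.38 ± 0.17) and iPSC-OB (0.45 ± 0.18) in the authors' deposited tables. Ppargc1a, the coactivator known for driving mitochondrial biogenesis, moved the other way, with 179.0 normalised reads in ESC-OB, 95.5 in sorted GFP+ and a level under the floor in ESC, so it was at least 147-fold and at least 78.4-fold higher. In iPSC-OB it had 61.4 normalised reads, against 1.92 in iPSC (5.00 ± 0.89 in the authors' deposited table, adjusted p = 1.25e-07). Tfam, which packages and transcribes mitochondrial DNA, fell in all 3 comparisons (-1.45 ± 0.17, -1.65 ± 0.17 and -1.44 ± 0.17 in the authors' deposited tables), as did Nrf1 (-1.52 ± 0.13, -0.98 ± 0.12 and -1.13 ± 0.20). Ppargc1b fell in ESC-OB (-0.77 ± 0.29) and did not pass in sorted GFP+ (-0.43 ± 0.28) or iPSC-OB (-0.30 ± 0.40) by the authors' deposited tables. Of 14 genes of mitochondrial biogenesis in all, 8 fell and 2 rose, 7 fell and 3 rose, and 8 fell and 3 rose in ESC-OB, sorted GFP+ and iPSC-OB. Tfb1m, a methyltransferase of mitochondrial ribosomal RNA, fell most of these in ESC-OB (-2.12 ± 0.25) and iPSC-OB (-1.74 ± 0.27), and Gabpa, a subunit of GABP, in sorted GFP+ (-2.73 ± 0.13) in the authors' deposited tables.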

How the data were processed

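The 3 files hold the authors' comparisons of groups (mRNA sequencing) and 0 columns of values for single samples. Tools listed in the submitters' processing notes are DESeq2, STAR 2.4.2a and R 3.2.2, with the build mm9, and what each was used for was not given. Columns, per the file headers, are the base mean (a signal, the average over libraries of counts after division by size factors), the authors' log2 fold change with a standard error in log2 units, the authors' test statistic (a score), and the deposited p-value and adjusted p-value. The deposited scores equal fold change over standard error, and the authors' adjusted p-values are Benjamini-Hochberg values over those genes that passed their filter. Both ESC tables have identical base means for 19781 genes, so they share 1 fit and the ESC libraries, and the iPSC table was normalised separately. Standard errors reach no more than 1.89 (ESC tables) and 1.29 (iPSC table), as where folds are shrunk, and thus folds at low counts are too small.

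Size factors were read from the lowest base means, which are sums of whole reads, and gave the depths and, with the fold changes, the estimated group levels. Differences between changes were tested with a z test on the summed squared standard errors and Benjamini-Hochberg adjustment over all genes, tested on simulated data first. The simulation drew independent folds with the authors' standard errors. It therefore checked the code, and not those errors or the effect of the shared ESC libraries. Transcript length is the median over the principal protein-coding transcripts of GENCODE M21, with principal as its annotation tags it. Python 3.11.15, numpy 2.4.6, pandas 2.3.3, scipy 1.17.1 and matplotlib 3.10.9 were used.

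The members and lists were chosen with earlier results of these data known. Genes named with values were the isoforms, the catalytic or core subunits, the largest rise and fall that passed in each complex and comparison, the 6 largest differences each way, the largest rise and fall that passed in each gene list, and Ppargc1a, Ppargc1b, Tfam and Nrf1; others (marker genes, subunits that did not pass and further examples) were chosen after their values were seen. A result that this rule names is not reported here. Some members share exon bases with a neighbour that the authors also list (Ndufa13 30.0% with Tssk6, Uqcrc2 26.6% with Pdzd9, Atp5o 25.5% with Donson, Atp5f1 21.0% with Wdr77). With neighbours that the authors do not list, the largest shares were 41.7% for Cox5a (Gm26631), 39.0% for Ndufb6 (Smim27) and 28.6% for Ndufb9 (Gm49356). Reads of processed pseudogenes or near-identical copies cannot be told apart here. Alternatives were another threshold, a re-centred scale, a base mean filter, a fold minimum, the authors' filter left out, a correlation between folds, and members left out.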

Additional observations from a re-analysis of the deposited data

Results flagged for a closer look

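For 6 members the change in iPSC-OB against iPSC differed from the change in ESC-OB against ESC by the test of the difference itself (z test, Benjamini-Hochberg over 18632 genes, of which 28.2% differed). Cox6a2, the muscle form of subunit 6a, had a log2 change lower by 4.55 in iPSC-OB (-4.55, adjusted p = 0.00166). The summed level of the striated muscle markers was 10759 normalised reads in iPSC-OB and 650.0 in iPSC, beside 32273 in ESC-OB and 483.2 in ESC. Single sarcomere genes went both ways: Myh7 had 2895 normalised reads in iPSC-OB and 9702 in ESC-OB, and Myl3 had 2685 and 1996. The part of muscle cells in the difference of Cox6a2 was not tested. Ndufa4l2 had a difference of -2.66 (adjusted p = 5.91e-08), and its stem cell levels also differed, with 76.7 normalised reads in iPSC and 23.2 in ESC, from tables normalised separately. Ndufs4, a complex I accessory subunit, had a difference of -0.72 (adjusted p = 0.0446), a value near the threshold. Cox5a and Cox7b, general subunits of complex IV, had differences of 0.77 (adjusted p = 0.00339) and 1.35 (adjusted p = 4.36e-07). For both, the levels were closer in iPSC-OB and ESC-OB (818.1 and 1054 normalised reads for Cox5a, 841.3 and 887.0 for Cox7b) than in iPSC and ESC (1454 and 3205 for Cox5a, 1427 and 3842 for Cox7b), without a test across the tables. Cox6b2, the testis form of subunit 6b, had a difference of 2.77 (adjusted p = 7.76e-16), with 110.8 normalised reads in iPSC and 460.0 in ESC.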

How the results depend on the processing

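No paired analysis was possible because the tables hold no values per sample. For the same reason leaving out each replicate in turn and another normalisation or count tool were not run. No result reversed under the alternatives that were run. Among members with a base mean of at least 100, the medians in the 3 comparisons moved by less than the median standard error of the members' folds. Re-centring on the median of all genes moved them further, from -0.56 to -0.75 in ESC-OB, from -0.07 to -0.27 in sorted GFP+ and from -0.42 to -0.48 in iPSC-OB. With 2 libraries in each iPSC group, as in the labels, 36 estimated levels of isoforms and partners came to between 0.830 and 1.09 times the value given, in each case a smaller shift than the standard error of that gene's fold. Without the tissue isoforms of complex IV and Ndufa4l2, chosen as an alternative after seeing the data, the members that rose numbered 2 in ESC-OB and 2 in iPSC-OB, against 6 in each. With a correlation of 0.5 between the folds, the sorted and unsorted changes differed for 51 members, 47 higher and 4 lower. The main test gave 30, 28 and 2, and the larger counts follow by construction from a smaller error. At that correlation 35.3% of all genes differed, 17.6% higher and 17.6% lower. With a base mean of at least 100, 1 member was lower, since Cox7a1 is not tested there. Of the iPSC-OB and ESC-OB changes, 5 were higher when re-centred on the median of all genes and likewise 5 among genes at a base mean of at least 100, against 3. Atp5k and Ndufv2 were added in both, and the cause was not tested. When re-centred, 11.3% of all genes were higher. Of 957 results for single genes under these alternatives, 889 kept their side of the threshold, 44 lost the call and 24 gained it. Ndufa6 in ESC-OB lost its call under 4 of the 5 alternatives that could end it, and the shallowest library (4.25 M reads, in ESC) limits every comparison with ESC. The medians of the members were the same with Cox8b at its bound.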
